A study of Mus musculus with 18 samples.

Results

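The enteroendocrine hormone genes described here are 10 genes, Gip, Gcg, Cck, Sct, Ghrl, Nts, Pyy, Sst, Tac1 and Tph1, out of 18838 genes listed in any of 3 tables of bulk RNA sequencing. They were taken by symbol, as the peptide hormone genes of the gut and the gene of the enzyme that starts serotonin synthesis, and all 10 were listed at every time point. The 18 libraries came from 3 wild-type (WT) mice and 3 mice labelled Mtgr1-/-, each sampled as freshly isolated duodenal crypts (day 0) and as enteroids 24 h (day 1) and 72 h (day 3) after plating. Enteroids are small three-dimensional cultures of intestinal epithelium grown from crypts. MTGR1, encoded by Cbfa2t2, is a transcriptional co-repressor, and the study compared the genotypes to learn how epithelial gene expression differs without it. The WT mice (Mtgr1+/+) were age-matched littermates of the Mtgr1-/- mice, of both sexes. The deletion was carried by every cell of the animal, so that nothing in the design restricts it to the epithelium or to enteroendocrine cells.

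Enteroendocrine cells are rare hormone-releasing cells scattered through the intestinal epithelium. They arise in the crypts from progenitors that transiently express the transcription factor Neurog3, and they sense food in the lumen and release peptides or serotonin towards blood vessels and nerves. Each cell makes 1 or a few hormones, and the mixture differs along the gut, with Gip, Cck and Sct typical of the duodenum and Pyy of the distal bowel. In bulk samples, fewer cells of a type and less RNA per cell cannot be told apart.

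The regions just upstream of 4 of the genes are shown because Gip and Sst had the most negative values in crypts on the scale of log2(normalized count + 1), and Gip, Gcg and Sct encode related peptides of the secretin and glucagon family that fell by different amounts. Each is the 250 bases before the RefSeq start in the mouse build GRCm38.p6, written 5′ to 3′ on the strand of the gene. Gip lies at chr11:96024295-96024544 on the plus strand, and Sst at chr16:23890845-23891094, Gcg at chr2:62483654-62483903 and Sct at chr7:141279134-141279383 on the minus strand. The GENCODE span of Sst begins upstream of this RefSeq start, inside the printed window. Capitals mark a match, on either strand, to CANNTG (the E-box bound by basic helix-loop-helix factors such as Neurog3 and Neurod1), TATAAA (the TATA box), TGACGTCA (the cyclic AMP response element) or TAATTA (a homeodomain motif).
Gip: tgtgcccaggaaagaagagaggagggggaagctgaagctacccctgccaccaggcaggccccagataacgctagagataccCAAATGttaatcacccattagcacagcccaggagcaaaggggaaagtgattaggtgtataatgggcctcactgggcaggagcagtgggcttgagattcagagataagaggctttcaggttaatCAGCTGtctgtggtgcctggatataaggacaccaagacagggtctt
Sst: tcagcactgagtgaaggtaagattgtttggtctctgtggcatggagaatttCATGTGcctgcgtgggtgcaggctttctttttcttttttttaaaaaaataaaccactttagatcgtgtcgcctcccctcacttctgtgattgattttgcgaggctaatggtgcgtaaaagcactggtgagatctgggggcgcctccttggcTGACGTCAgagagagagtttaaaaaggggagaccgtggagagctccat
Gcg: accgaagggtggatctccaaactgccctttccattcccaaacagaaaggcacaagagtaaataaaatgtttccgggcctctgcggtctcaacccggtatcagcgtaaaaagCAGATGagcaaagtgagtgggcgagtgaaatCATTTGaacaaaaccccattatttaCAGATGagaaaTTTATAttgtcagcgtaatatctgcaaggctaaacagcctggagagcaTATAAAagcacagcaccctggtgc
Sct: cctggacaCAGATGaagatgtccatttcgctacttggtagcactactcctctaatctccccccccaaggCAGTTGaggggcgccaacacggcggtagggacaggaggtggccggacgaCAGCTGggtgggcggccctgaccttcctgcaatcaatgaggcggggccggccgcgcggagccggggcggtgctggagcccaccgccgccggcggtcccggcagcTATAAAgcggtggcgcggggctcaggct
All 4 windows held a CANNTG match, as did 66.2% of the 32851 windows of this length in the promoter table. The Gcg and Sct windows held TATAAA, present in 12.4% of all windows. The Sst window held TGACGTCA at 48 to 41 bases before the start, present in 1.55% of all windows and in no other of the 10 genes. The 10 genes had 15 windows, since some had more than 1. Among the E-box forms, CAGCTG lay upstream of Gip, Ghrl, Sct and Nts, in 4 of the 15 windows (13.0% of all windows). CATCTG lay upstream of Gcg, Cck, Sct and Tac1, also in 4 of the 15 (14.4% of all windows). Every CAGCTG and CATCTG match is also a CANNTG match. TAATTA, in 4.84% of all windows, lay upstream of Tac1 and Tph1, in 2 of the 15 windows. These matches are descriptions of letters, and no factor's binding was measured.

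Between 22035316 and 29661084 reads per library lay on genes, with a median of 26258539. A normalized count is the read count of a gene divided by 1 factor per library, set by the authors within each time point, so levels were compared between genotypes within a time point. Cbfa2t2, the targeted gene, had mean normalized counts of 577 in WT and 566 in labelled Mtgr1-/- crypts (log2 fold change -0.047, adjusted p = 0.917, limma). Its log2 fold change was 0.37 in day 1 enteroids (adjusted p = 0.0557, limma) and 0.056 in day 3 enteroids (adjusted p = 0.686). Reads summed over the gene therefore gave no check of the genotype labels, and the libraries are called null-labelled below. The epithelial part of the label was met by the enterocyte markers, which summed to 203813 or more normalized counts in every library. The duodenal origin was not checked. In crypts, the summed immune markers (6 genes) were 1584 to 8404 in WT and 506 to 1412 in null-labelled libraries. The highest WT value belonged to WT library 3, which also had the highest stromal marker sum, 96.7 against 2.97 and 19.2.

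The mean normalized counts of all 10 genes were lower in null-labelled than in WT libraries at each time point. In crypts, 9 of the 10 passed the test as lower and 0 as higher, where 3.15% of the 12980 genes tested were called lower and 1.58% higher. Every null-labelled crypt library lay below every WT crypt library for all 10 genes, as was so for 13.5% of all genes tested. At day 1, 8 of the 10 were called lower and 0 higher, against a background of 28.9% lower and 30.0% higher, and 9 of the 10 did not overlap, against 33.9%. At day 3, 9 of the 10 were called lower and 0 higher, against 29.1% and 29.9%, and none of the 10 overlapped, against 34.2%. Genes with a mean under 10 normalized counts were not tested, which left out Pyy at each time point. Among the 9 tested genes, 5 in crypts, 5 on day 1 and 3 on day 3 had a null-labelled mean under 10 and entered the test through their WT level. For the 3 counts of 0 genes called higher, an unadjusted p below 0.05 as well as edgeR and DESeq2 also gave 0. With 3 mice against 3, an exact permutation test of 1 gene cannot go below p = 0.1, so the p-values given are those of limma, fitted over all genes on log2(normalized count + 1), with Benjamini-Hochberg adjustment over all of them. The added 1 pulls log2 values of a gene near 0 towards 0, but libraries at or near 0 also weigh heavily in a mean of logs. For Gip at day 1 the value was -8.04, against -9.29 with 0.1 added and -7.53 with DESeq2. Log2 values of such genes can therefore be smaller or larger in size than the ratio of mean counts gives.

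**Figure D1:**
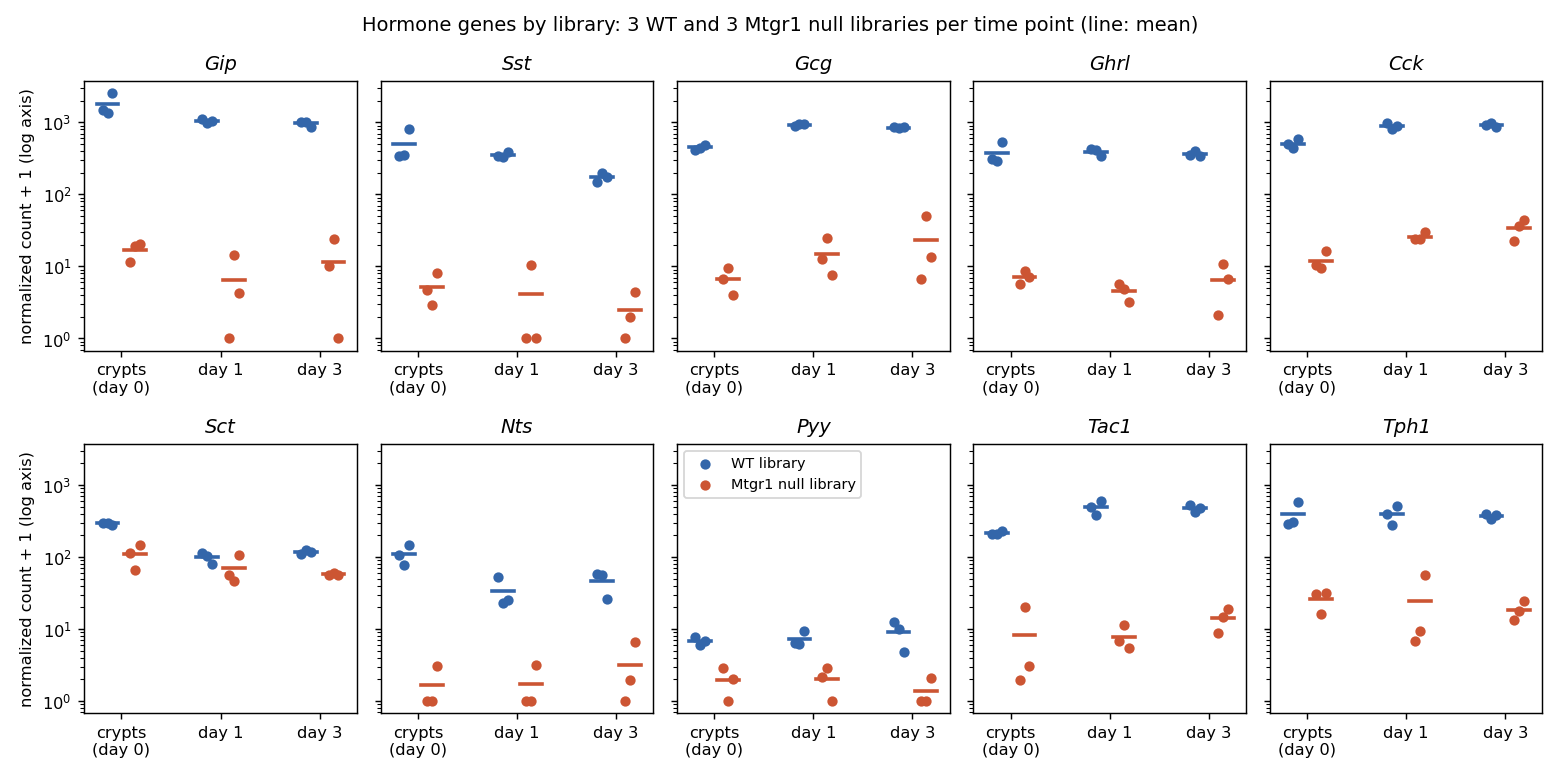
Normalized count + 1 on a log axis for each of the 10 hormone genes in 18 libraries, with WT in blue, null-labelled in red and a line at the mean of 3 libraries. The null-labelled points lie below the WT points in every panel and time point except for Sct at day 1, where 105 in null-labelled library 3 lies between the WT values of 101 and 113.

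Gip encodes the incretin GIP, released by K cells after a meal to raise insulin release. The gene (ENSMUSG00000014351.12) spans chr11:96024545-96030831 of GRCm38 on the plus strand and has 6 exons. Gip normalized counts in crypts were 1505, 1349 and 2534 in WT libraries 1 to 3 and 10.4, 18.1 and 19.3 in null-labelled libraries 1 to 3. At day 1, Gip was at 1097, 976 and 1044 in WT and at 0, 13.3 and 3.31 in null-labelled libraries. At day 3, Gip was at 1014, 1024 and 861 in WT and at 9.10, 22.9 and 0 in null-labelled libraries. WT crypt library 3 stood above the other 2 WT crypts, 1 null-labelled library of each enteroid time point had no read, and the groups lay far apart. The log2 fold change of Gip was -6.72 ± 0.32 (SE, n = 3 against 3, adjusted p = 0.000186, limma) in crypts, -8.04 ± 0.82 (adjusted p = 0.000276) at day 1 and -7.28 ± 0.97 (adjusted p = 0.000533) at day 3. As a mean level, null-labelled crypts held 0.886% of the WT Gip count, a ratio of 113, from 49 reads against 5135.

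Gcg encodes proglucagon, which intestinal L cells process into GLP-1 and GLP-2. It spans chr2:62474530-62483650 on the minus strand (ENSMUSG00000000394.15, 6 exons). Gcg normalized counts in crypts were 415, 437 and 490 in WT and 5.65, 8.56 and 3.05 in null-labelled libraries. Gcg counts at day 1 were 893, 956 and 938 against 11.7, 23.7 and 6.62, and at day 3 they were 855, 827 and 859 against 5.69, 49.7 and 12.4. WT libraries were close to each other at each time point, while null-labelled library 2 was the highest of its group each time and stood furthest apart at day 3. Gcg fell at each time point, with log2 fold changes of -6.14 ± 0.35 in crypts (SE, adjusted p = 0.000322, limma), -6.12 ± 0.38 on day 1 (adjusted p = 5.56e-05) and -5.68 ± 0.62 on day 3 (adjusted p = 0.000194). The null-labelled mean was 1.29%, 1.51% and 2.67% of the WT mean at the 3 time points in turn.

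Cck encodes cholecystokinin, the I-cell hormone that contracts the gallbladder and releases pancreatic enzymes. It spans chr9:121489824-121495694 on the minus strand (ENSMUSG00000032532.7, 4 exons). Cck normalized counts in crypts were 496, 444 and 579 in WT and 9.42, 8.56 and 15.2 in null-labelled libraries. Cck counts at day 1 were 965, 804 and 882 against 23.3, 22.8 and 28.7, and at day 3 they were 929, 987 and 859 against 21.6, 35.8 and 42.7. No library of either group came near the other group, and Cck kept reads in all 9 null-labelled libraries. Its log2 fold changes had small errors, -5.43 ± 0.27 in crypts (SE, adjusted p = 0.000186, limma), -5.10 ± 0.16 on day 1 (adjusted p = 7.86e-06) and -4.80 ± 0.24 on day 3 (adjusted p = 7.81e-06).

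Sct encodes secretin, which S cells of the duodenum release in response to acid and which drives bicarbonate secretion from the pancreas. It spans chr7:141278330-141279133 on the minus strand (ENSMUSG00000038580.13, 4 exons) and had the smallest genotype difference of the tested hormone genes at each time point. Sct normalized counts in crypts were 301, 297 and 281 in WT and 114, 65.6 and 144 in null-labelled libraries. Sct counts at day 1 were 113, 101 and 80.5 against 56.0, 45.5 and 105, and at day 3 they were 108, 124 and 117 against 55.8, 59.7 and 55.0. The groups were apart in crypts and at day 3, but at day 1 null-labelled library 3 exceeded 2 of the WT libraries. Sct had log2 fold changes of -1.5 ± 0.29 in crypts (SE, adjusted p = 0.0340, limma) and -1.02 ± 0.16 at day 3 (adjusted p = 0.00113). At day 1 the log2 fold change of Sct was -0.59 ± 0.32 (adjusted p = 0.152, limma), with a 95% interval from -1.34 to 0.16. The day 1 value depended on null-labelled library 3, without which it was -0.93 (adjusted p = 0.0175, range 0.0175 to 0.434 over 17 alternatives). In crypts, the call on Sct was lost without WT library 1 (adjusted p = 0.138), WT library 2 (0.119), WT library 3 (0.0697) or null-labelled library 1 (0.0890), at log2 fold changes of -1.58 to -1.48 (limma, range of adjusted p 0.000209 to 0.138 over 17 alternatives).

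Ghrl encodes ghrelin, the appetite-stimulating peptide, which is active only after acylation. It spans chr6:113716119-113719880 on the minus strand (ENSMUSG00000064177.8, 4 exons), where 2 unlisted genes overlap it on the other strand. Ghrl normalized counts in crypts were 313, 289 and 528 in WT and 4.71, 7.61 and 6.10 in null-labelled libraries. Ghrl counts at day 1 were 429, 410 and 339 against 4.66, 3.79 and 2.21, and at day 3 they were 357, 400 and 346 against 1.14, 9.94 and 5.61. WT crypt library 3 was again high, and no null-labelled library reached 10. Ghrl fell, and its log2 fold changes were -5.69 ± 0.33 in crypts (SE, adjusted p = 0.000322, limma), -6.47 ± 0.29 on day 1 (adjusted p = 1.75e-05) and -6.10 ± 0.53 on day 3 (adjusted p = 6.63e-05). Mboat4, the enzyme that acylates ghrelin, was below the minimum mean, at 11.5, 11.9 and 17.3 in WT and 1.88, 0.951 and 3.05 in null-labelled crypts.

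Nts encodes neurotensin, released in response to fat. It spans chr10:102481756-102490486 on the minus strand (ENSMUSG00000019890.4, 4 exons). Nts normalized counts in crypts were 105, 76.2 and 147 in WT and 0, 0 and 2.03 in null-labelled libraries. Nts counts at day 1 were 51.2, 21.9 and 24.3 against 0, 0 and 2.21, and at day 3 they were 57.4, 55.2 and 25.2 against 0, 0.994 and 5.61. Null-labelled libraries 1 and 2 were at or near 0 throughout, and library 3 of that group held 2, 2 and 5 reads. The fall of Nts amounted to log2 fold changes of -6.21 ± 0.62 in crypts (SE, adjusted p = 0.00313, limma), -4.40 ± 0.66 on day 1 (adjusted p = 0.00115) and -4.22 ± 0.71 on day 3 (adjusted p = 0.00155). In crypts the null-labelled level was 0.599% of WT, with an exact 95% counting interval of 0.072% to 2.18% that covers counting error only, since it rests on 2 reads against 315. Without WT library 1, the mean of Nts at day 1 fell below the minimum and it was not tested.

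Pyy encodes peptide YY, a satiety peptide of L cells. It spans chr11:102106676-102107832 on the minus strand (ENSMUSG00000017311.15, 4 exons). Pyy normalized counts in crypts were 6.71, 4.95 and 5.76 in WT and 1.88, 0 and 1.02 in null-labelled libraries. Pyy counts at day 1 were 5.49, 5.21 and 8.38 against 1.17, 1.90 and 0, and at day 3 they were 11.7, 8.91 and 3.87 against 0, 0 and 1.12. The gene was near the limit of detection, with 17, 21 and 27 reads summed over the 3 WT libraries at the 3 time points in turn and 3, 3 and 1 in the null-labelled ones. By these reads Pyy in null-labelled crypts was at 16.7% of WT, with an exact 95% counting interval of 3.13% to 57.6%.

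Sst encodes somatostatin, which D cells release onto their neighbours and which restrains most other gut hormones. It spans chr16:23889573-23890958 on the minus strand (ENSMUSG00000004366.4, 2 exons). Sst normalized counts in crypts were 343, 347 and 815 in WT and 3.77, 1.90 and 7.11 in null-labelled libraries. Sst counts at day 1 were 345, 326 and 388 against 0, 9.48 and 0, and at day 3 they were 147, 195 and 172 against 0, 0.994 and 3.37. WT crypt library 3 held more than any other library, and 3 of the 6 null-labelled enteroid libraries had no read. Sst had log2 fold changes of -6.58 ± 0.50 in crypts (SE, adjusted p = 0.00122, limma), -7.33 ± 0.85 on day 1 (adjusted p = 0.000429) and -6.38 ± 0.52 on day 3 (adjusted p = 4.87e-05). With the added 1, its values came next to those of Gip at each time point, but this order rests on that choice. With 0.1 in its place, Nts was the most negative in crypts (-8.58, against -6.91 for Sst and -6.80 for Gip), and Sst (-9.59) passed Gip (-9.29) at day 1.

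Tac1 and Tph1 are genes of the enterochromaffin cell, the serotonin-releasing cell of the gut. Tac1 encodes the precursor of substance P and neurokinin A and spans chr6:7554879-7565834 on the plus strand (ENSMUSG00000061762.12, 7 exons). Tac1 normalized counts in crypts were 207, 206 and 233 in WT and 0.942, 19.0 and 2.03 in null-labelled libraries. Tac1 counts at day 1 were 499, 383 and 608 against 5.83, 10.4 and 4.41, and at day 3 they were 522, 419 and 480 against 7.96, 13.9 and 18. Null-labelled crypt library 2 held 20 of the 23 Tac1 reads of its group, and the groups did not overlap. The log2 fold changes of Tac1 were -5.46 ± 0.83 in crypts (SE, adjusted p = 0.0156, limma), -6.03 ± 0.33 on day 1 (adjusted p = 3.25e-05) and -5.12 ± 0.28 on day 3 (adjusted p = 1.05e-05). The call in crypts was lost without WT library 1 (log2 -5.49, adjusted p = 0.0791), WT library 2 (-5.49, 0.0742) or null-labelled library 3 (-5.11, 0.0581), in a range of 5.73e-08 to 0.0791 over 17 alternatives (limma, edgeR and DESeq2).

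Tph1 encodes tryptophan hydroxylase 1, the rate-limiting enzyme of serotonin synthesis outside the brain. It spans chr7:46644641-46672537 on the minus strand (ENSMUSG00000040046.14, 11 exons). Tph1 normalized counts in crypts were 288, 304 and 585 in WT and 30.1, 15.2 and 30.5 in null-labelled libraries. Tph1 counts at day 1 were 397, 281 and 507 against 5.83, 8.53 and 56.2, and at day 3 they were 394, 332 and 384 against 12.5, 16.9 and 23.6. Null-labelled day 1 library 3 stood well above the other 2, yet below every WT library. Fold changes of Tph1 on the log2 scale were -3.89 ± 0.38 in crypts (SE, adjusted p = 0.00308, limma), -4.63 ± 0.73 on day 1 (adjusted p = 0.00135) and -4.35 ± 0.24 on day 3 (adjusted p = 1.05e-05). After Sct, it kept the largest share of the WT level in crypts among the tested hormone genes, 6.44%.

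**Figure D2:**
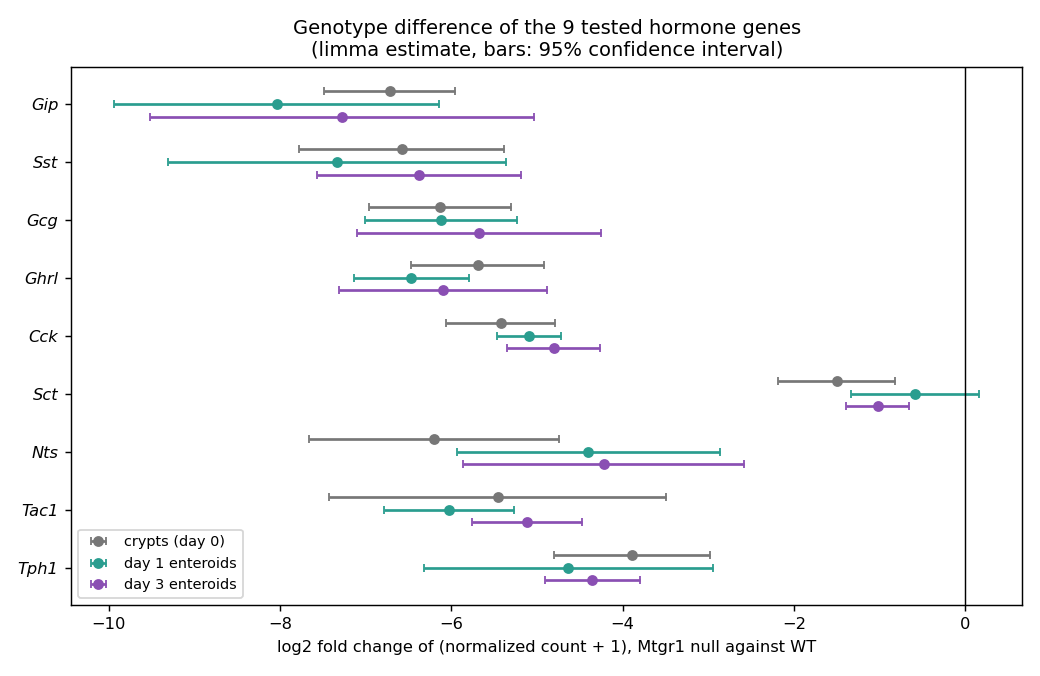
Log2 fold change of normalized count + 1, null-labelled against WT, for the 9 tested hormone genes (limma estimates, bars are 95% confidence intervals, n = 3 against 3), with crypts in grey, day 1 in green and day 3 in purple. Sct lies nearest to 0 at each time point, and its day 1 interval, from -1.34 to 0.16, is the only one of the 27 that reaches 0.

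Sct was apart from the rest. Its 95% interval ended at -2.18 in crypts, -1.34 at day 1 and -1.39 at day 3, whereas the intervals of the other 8 tested genes began at -2.98 or lower in crypts, -2.86 or lower at day 1 and -2.59 or lower at day 3. No test between genes was run. Set per length of transcript, Gip was the most abundant of the 10 in WT, with 46.7% ± 3.08 (SD, n = 3) of their summed level in crypts, 30.7% ± 0.32 at day 1 and 30.8% ± 1.46 at day 3. Sct made up 6.78% to 11.8% in WT crypts and 61.7% to 79.8% in null-labelled crypts. At day 1 the Sct share was 2.86% to 3.91% in WT and 45.6% to 74.5% in null-labelled libraries, and at day 3 it was 4.16% to 4.84% against 42.1% to 64.8%. Sct was the highest of the 10 in each of the 9 null-labelled libraries, although its own normalized count was lower than in WT in crypts and at day 3.

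**Figure D3:**
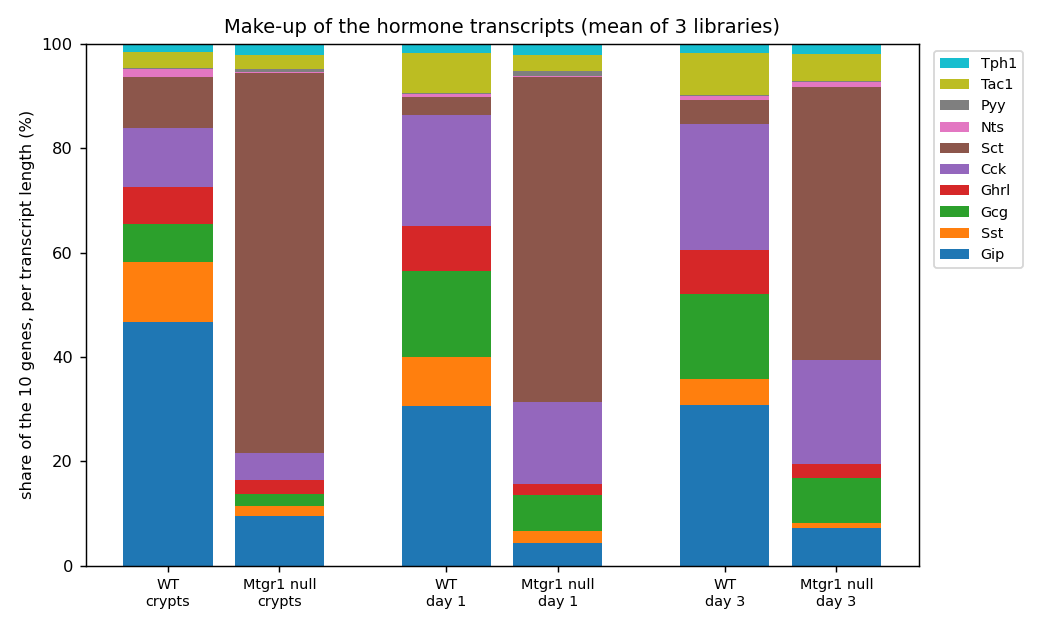
Share of each gene in the summed level of the 10 hormone genes, per transcript length, as the mean of 3 libraries for each genotype and time point. Gip (blue, at the base) takes 46.7%, 30.7% and 30.8% in WT, while Sct (brown) takes 72.9%, 62.1% and 52.4% in null-labelled libraries.

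The order of the levels per length, as normalized counts per kilobase of transcript, also differed between time points in WT. In WT crypts, Gip (2755 ± 987, SD, n = 3) was followed by Sst (696 ± 376), Cck (634 ± 84.9), Sct (549 ± 19.9), Ghrl (423 ± 148), Gcg (411 ± 35.7), Tac1 (175 ± 12.2), Nts (87.9 ± 28.6), Tph1 (86.0 ± 36.6) and Pyy (10.5 ± 1.6). The ranges of neighbours overlapped from Sst through to Gcg and between Nts and Tph1, so those places in the order are not resolved. In WT enteroids the order began with Gip, Cck and Gcg at both time points, with no overlap between these neighbours, at 1593, 1106 and 854 on day 1 and 1482, 1157 and 779 on day 3. In null-labelled libraries Sct came first at each time point, followed in crypts by Gip (24.4 ± 7.44) and Cck (13.9 ± 4.55), whose ranges overlapped, and in enteroids by Cck (31.2 ± 4.09 on day 1 and 41.8 ± 13.4 on day 3). The lower places were mostly unresolved.

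As RPM, the reads of a gene scaled to the same total of reads on genes in every library, which was not tested between time points, WT Cck stood at 19.9 ± 2.49 (SD, n = 3) in crypts, 37.0 ± 1.86 at day 1 and 38.6 ± 2.87 at day 3. WT Gcg stood at 17.6 ± 1.28, 39.1 ± 2.96 and 35.4 ± 0.877, and WT Tac1 at 8.45 ± 0.490, 20.8 ± 4.55 and 19.8 ± 2.31. These 3 genes were thus higher in every WT enteroid library than in any WT crypt library. WT Gip, at 70.4 ± 24.3, 43.6 ± 0.911 and 40.3 ± 4.18, WT Nts, at 4.30 ± 1.36, 1.35 ± 0.616 and 1.92 ± 0.767, WT Sst, at 19.6 ± 10.3, 14.8 ± 1.39 and 7.15 ± 0.949, and WT Sct, at 11.5 ± 0.575, 4.12 ± 0.624 and 4.86 ± 0.282, had lower means in enteroids. WT Ghrl, at 14.8, 16.5 and 15.3, and WT Tph1, at 15.4, 16.5 and 15.5, had similar means throughout.

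Whether the genotype difference itself changed between time points was tested in a joint fit of the 18 libraries, in which each mouse had a random effect. None of the 9 tested hormone genes passed for any pair of time points (0 of 9 each, limma), where 39.4% of 12937 genes passed for day 1 against crypts, 0.0309% for day 3 against day 1 and 30.6% for day 3 against crypts. At an unadjusted p below 0.05, the counts were 1, 0 and 0 of 9, and the 1 was Sct at day 1 against crypts, with a difference of log2 fold changes of 0.92 ± 0.40 (SE, adjusted p = 0.0790, limma). The difference was 1.80 for Nts, with a 95% interval of -0.29 to 3.90, and -1.32 for Gip, with an interval of -4.07 to 1.43. For genes with null-labelled counts close to 0, such as Nts and Gip, the intervals are wide, and changes of several fold in either direction could go undetected. Without null-labelled mouse 2, Sst (adjusted p = 0.0180) and Sct (0.0415) passed for day 1 against crypts and Tac1 (0.0429) for day 3 against crypts, and without null-labelled mouse 3, Tph1 (0.0468) passed for day 1 against crypts (limma). Cck had the narrowest interval for day 1 against crypts, -0.36 to 1.02 around 0.33.

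Many of the genes that specify enteroendocrine cells were lower as well. The list held 22 transcription factors of the lineage. In crypts, 11 of 19 tested were called lower and 0 higher, against 3.15% and 1.58% of all genes tested. For day 1 the counts were 17 lower and 1 higher of 18, against 28.9% and 30.0%. For day 3 they were 17 lower and 2 higher of 19, against 29.1% and 29.9%. The factors had median log2 fold changes of -4.40, -4.59 and -4.14, where the median of all genes was 0.0076, -0.0080 and 0.0026. At day 1, 2 of them were at 0 in all null-labelled libraries, and with these at a floor of 3 reads over the group the median was -4.52. Neurog3, the factor that commits progenitors to the lineage, had normalized counts of 89.1, 102 and 115 in WT and 0, 2.85 and 2.03 in null-labelled crypts, which gave -5.50 on the log2 scale (adjusted p = 0.00471, limma), and -6.83 at day 1. Neurod1, which acts after Neurog3, had a crypt value of -5.96 (adjusted p = 0.00178, limma) and Rfx6, which sustains hormone gene expression, of -5.46 (adjusted p = 0.00780). Pdx1, a factor of the whole duodenal epithelium, rose by 0.77 at day 1 (adjusted p = 0.00780, limma) and by 1.17 at day 3 (adjusted p = 0.00172).

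Of 12 genes for granins and prohormone processing, 6 were called lower at each time point, of 8 tested in crypts, 9 on day 1 and 8 on day 3. At the 3 time points 1, 2 and 2 were called higher, and the medians were -3.42, -4.37 and -4.13. Of all genes tested, 3.15%, 28.9% and 29.1% were called lower and 1.58%, 30.0% and 29.9% higher. Chgb, a granin of the dense-core secretory granule, fell, with log2 fold changes of -5.88 in crypts (adjusted p = 9.71e-05, limma), -6.13 at day 1 and -5.45 at day 3. Chga, the granin used most as a marker of these cells, was at 954, 972 and 2051 in WT and 89.5, 160 and 192 in null-labelled crypts. Cpe, the carboxypeptidase that trims prohormones, moved the other way, from 282, 265 and 407 in WT to 2985, 733 and 1442 in null-labelled crypts, a rise of 2.23 on the log2 scale (adjusted p = 0.0490, limma) that was 3.99 at day 1 and 2.62 at day 3. Pam, which amidates peptides, rose by 1.17 at day 1 (adjusted p = 0.000413, limma) and by 0.85 at day 3 (adjusted p = 0.00155).

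Beyond Tph1, the genes for making, loading and clearing serotonin did not follow it. Of 7, none of the 6 tested passed in crypts, and 5 were higher at day 1 and 4 at day 3, with 0 lower, medians 0.12, 1.07 and 1.16. Of all genes tested, 30.0% and 29.9% were called higher at these time points. These serotonin handling genes summed to 16800 to 21898 normalized counts in WT crypts, where Tph1 had a mean of 392. Which cell types supplied their reads was not tested. Ddc, the decarboxylase that completes serotonin synthesis, rose by 1.53 on the log2 scale at day 1 (adjusted p = 0.000610, limma) and by 1.45 at day 3, and the vesicle transporter gene Slc18a1 by 1.29 and 1.19. Of 21 genes for nutrient sensing and excitability, 5 of 11 tested were lower in crypts, 6 of 10 at day 1 with 1 higher, and 8 of 10 at day 3. Their medians were -1.32, -2.63 and -2.58. Of all genes tested, 3.15%, 28.9% and 29.1% were called lower at the 3 time points in turn. The largest fall in this list was that of Trpa1, the irritant channel of enterochromaffin cells, at -5.51 in crypts (adjusted p = 0.00231, limma) and -5.79 at day 1. At day 3 it was that of Scn3a, a sodium channel, at -5.24. The peptidases that break hormones down, 7 genes, had 0 calls in crypts and 5 higher and 0 lower at both enteroid time points, medians 0.57, 2.05 and 1.64, led by the brush-border enzyme Ace (3.30 at day 1, adjusted p = 2.62e-05, limma).

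**Figure D4:**
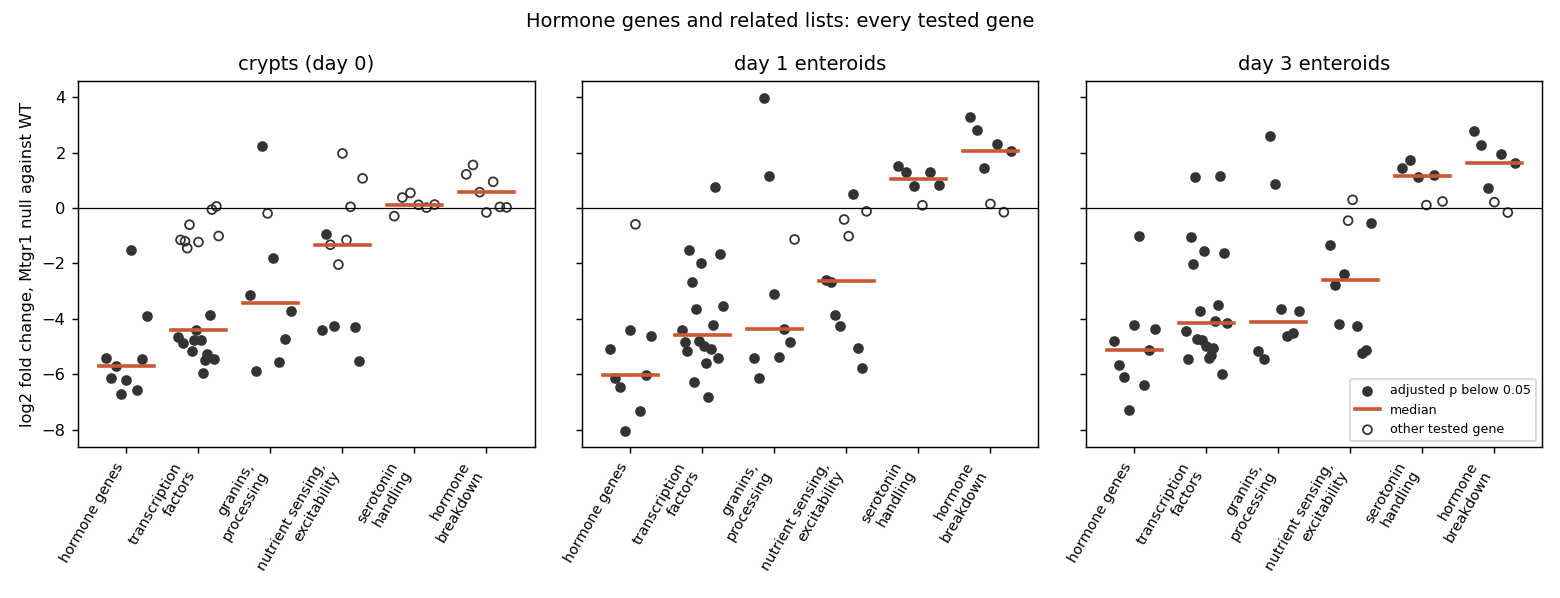
Log2 fold change, null-labelled against WT, of every tested gene of 6 lists in crypts, day 1 and day 3, with filled points for an adjusted p below 0.05 (limma), open points for the other tested genes and a red line at the median. The hormone genes and most transcription factor and granin genes lie below 0, while the serotonin handling genes and most hormone breakdown genes lie above 0 in enteroids, with medians of 1.07 and 2.05 at day 1.

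Of 20 other gut peptide genes, 2 were tested in crypts and 5 in enteroids. Pthlh, the gene of parathyroid hormone-related protein, fell, with log2 fold changes of -5.30 at day 1 (adjusted p = 0.000352, limma) and -4.76 at day 3, as did Ucn3 (urocortin 3), at -4.15 on day 3 (adjusted p = 0.000735). Edn1 (endothelin 1) was at -0.88 on day 1 (adjusted p = 0.0245, limma) and at 0.78 on day 3 (adjusted p = 0.0169). The receptors of these hormones, 27 genes, were mostly below the minimum mean, and 2, 1 and 1 of them were tested at the 3 time points. Htr4, a serotonin receptor, fell in enteroids, at -1.15 on day 1 (adjusted p = 0.0168, limma) and -1.36 on day 3 (adjusted p = 0.0117), and was at 0.99 in crypts (adjusted p = 0.350).

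Markers of some other cell types, such as goblet and Paneth cells, were lower along with the hormone genes, while others were not. In crypts, 7 of 7 tested goblet markers were lower, against 3.15% of all genes tested. The goblet markers summed to 151470 to 174223 normalized counts in WT and 4766 to 7710 in null-labelled crypt libraries. Paneth markers summed to 131674 to 178716 in WT and to 1851, 46325 and 1393 in null-labelled crypt libraries 1 to 3. Of the Paneth markers, 0 of 8 were called in crypts and 8 of 8 were lower at days 1 and 3. Over all genes tested, 28.9% and 29.1% were called lower on those days. In crypts, null-labelled library 2, with the high Paneth sum, was not apart in the summed normalized count of the hormone genes other than Sct. That sum came to 66.9, 78.9 and 86.4 in null-labelled crypt libraries 1 to 3, and library 2 had the lowest Sct count (65.6). At day 3, null-labelled library 2 had the highest Paneth sum of its group (1762, 8936 and 3446 in libraries 1 to 3). It also had the highest sum of those hormone genes (58.0, 151 and 112). At day 1, library 2 had the highest Paneth sum (761.5, 6750 and 1397), and library 3 the highest hormone sum (52.5, 93.9 and 104). A link between these sums was not tested. Enterocyte markers were higher in null-labelled enteroids, in 9 of 10 genes at both time points, against 30.0% and 29.9% of all genes tested. At day 1 the 1 called lower was Sis (log2 fold change -2.59, adjusted p = 0.0015, limma). In crypts Sis was the only enterocyte marker called, also lower (-4.51, adjusted p = 0.00285, limma), with a list median of 0.14. Tuft cell markers summed to 1293 to 1478 in WT and 1921 to 6338 in null-labelled crypts, with a median log2 fold change of 1.81. Of 7 tested in crypts, 1 was called higher, against 1.58% of all genes tested. In enteroids 3 of 6 were called lower at both time points, where 28.9% and 29.1% of all genes tested were called lower. Genes of enteric neurons, which also express Tac1, Sst and Nts, were scarce. Their 8 markers summed to 32.6 to 53.0 normalized counts in WT and 3.77 to 13.2 in null-labelled crypts, to 36.4 to 54.0 against 2.84 to 7.72 at day 1 and to 49.9 to 59.2 against 7.86 to 17.9 at day 3. Of these markers, 1, 1 and 2 were tested at the 3 time points, of which 0 were called in crypts (log2 fold change -3.59), 1 was lower at day 1 (-3.34) and 2 were lower at day 3 (median -3.16). Of the glial and the pancreatic acinar markers, 1 each was tested in crypts and neither was called, and the 1 acinar marker tested at day 3 was higher (0.76). None of the stromal markers reached the minimum mean at any time point. In crypts, Sox10, Lum and Amy2a2 were at 0 or unlisted. The part of these shifts in cell type markers in the fall of the hormone genes was not tested.

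The genes most alike to the hormone genes over the 18 libraries were ranked by Pearson correlation with the mean of the 9 tested members, on log2 values centred within each table. Of 12136 genes, the first 10 were Chgb (0.997), Neurod1 (0.993), Tpsg1 (0.991), Agr2 (0.991), Tff3 (0.991), Scgn (0.990), Fcgbp (0.990), Ern2 (0.989), Fras1 (0.989) and Nefm (0.989). Chgb, Neurod1 and Scgn are known from enteroendocrine cells, and Agr2, Tff3, Fcgbp and Ern2 from goblet cells. The points share their libraries and the genotype contrast, so these are descriptions with no test. Among the members, likeness to the mean of the others was highest for Cck (0.994) and lowest for Sct (0.814). Within the 9 WT libraries alone it ran from -0.14 for Sct to 0.958 for Gip, and within the 9 null-labelled libraries from -0.052 for Sct to 0.539 for Cck.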

How the data were processed

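RNA from crypts, day 1 and day 3 enteroids of 3 WT and 3 Mtgr1-/- mice was sequenced by the authors from stranded mRNA libraries as single reads, trimmed with fastp 0.20.0, quantified with Salmon 1.3.0 against GENCODE transcripts and compared with DESeq2 1.26.0. Per gene and library, the authors deposited a signal, the count divided by 1 factor that is shared by all genes of a library and set per time point, and the authors also deposited a mean signal per gene. The authors' own log2 fold changes with their errors, Wald scores and p-values were deposited beside them and not used here. In all 18 libraries 100% of the values were whole multiples of 1 step (relative tolerance 1e-06), so reads were recovered by division. The step was close to 1 in 2 libraries, the second WT crypt library and the second Mtgr1-/- library of day 3.

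The values were tested in each table with limma 3.58.1 (R 4.3.3, trend) on log2(normalized count + 1), genes with a mean of at least 10, two-sided, with Benjamini-Hochberg adjustment and a threshold of 0.05. The change of the genotype difference was fitted over 18 libraries with a random effect of mouse (correlation within a mouse 0.0058). That value does not show libraries of 1 mouse to be unrelated. Deviations from the group mean correlated at 0.101 to 0.580 between time points of the same mouse. For different mice of a genotype they correlated at -0.500 to 0.246. Gene levels per kilobase and exon numbers used the GENCODE M21 basic transcript with the longest coding sequence. Steps were tested on simulated data. The hormone genes, gene lists and tests were chosen with earlier results of these data known. Named list genes are up to 3 per list, time point and direction with the largest change past the threshold. Mboat4 and, in crypts, Chga were named after their values were seen. Groups and mouse numbers came from the labels, by which libraries of 1 mouse recur across time points. Whether mice of the same number shared a litter is not given in the sources used here, and p-values measure the spread between these mice. Alternatives were pseudocounts of 0.1 and 8, a block for the mouse number, no mouse effect, no filter or a filter of 10 in each library of a genotype, array weights, no trend, quantile normalization, median-ratio rescaling, edgeR 4.0.16 and DESeq2 1.42.0 on recovered reads, and each library or mouse left out. Same-numbered mice of the 2 genotypes deviated together at day 1 (r = 0.116, 0.231 and 0.216) and not at day 3 (-0.0067, -0.0023 and -0.0156). In crypts the values were positive (0.0764, 0.274 and 0.346), but WT mouse 1 was more alike to null-labelled mouse 2 (0.201) than to null-labelled mouse 1.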

Additional observations from a re-analysis of the deposited data

How the results depend on the processing

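Of 458 values of the genotype difference of single hormone genes under 17 alternatives, 447 kept their direction and side of the threshold, 9 lost the call, 2 gained it and 0 reversed. The 9 lost calls were Sct and Tac1 in crypts, for Sct also under quantile normalization (-1.32, adjusted p = 0.0554) and without a trend (-1.5, 0.0562), within a range of 0.000209 to 0.138 (limma, edgeR and DESeq2). Sct at day 1 was called with array weights (-0.73, adjusted p = 0.0186, limma). With no filter, Pyy was called lower at day 1 and day 3 and not in crypts, so that 9, 9 and 10 of 10 were lower. Leaving out 1 library left 7 to 9 of the hormone genes called lower in crypts, 7 to 9 at day 1 and 9 to 9 at day 3. A replicate block left the counts at 9, 8 and 9 lower and at 0 changed between time points, and it changed the call of no single hormone gene, while the genes called lower in crypts, over all genes tested, went from 409 to 388. The count of all genes lower in crypts, 409, was 1118 with array weights, 793 with DESeq2 and 121 to 379 with 1 library left out. For the change of the genotype difference, 1 hormone gene passed at a pseudocount of 8 for day 1 against crypts (Nts, 1.57, adjusted p = 0.0163, limma, range 0.0163 to 0.510 over 13 alternatives) and 1 for day 3 against crypts, and with 1 mouse left out the counts were 0 to 2 and 0 to 1. Of 351 such values of single genes, 27 reversed in sign, so their directions are not settled. The causes were not tested. Pyy and Nts had at most 5 reads in any null-labelled library, so the size of their falls is imprecise.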
